A study of Mus musculus with 6 samples.

Results

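The genes described here are 41 genes of the unfolded protein response (UPR) and of the amino acid program driven by the transcription factor ATF4, in mouse embryonic fibroblasts (MEFs). They were listed by name, for their known roles, with earlier results of these data known, and were found in a table of 17092 genes. All 41 passed the filter on low counts, which kept 13075 genes. They were sorted by role into 13 chaperones and foldases of the endoplasmic reticulum (ER), 4 genes of ER-associated degradation, 4 UPR sensors and their effector *Xbp1*, 7 regulators of the ATF4 branch, 9 enzymes of amino acid and one-carbon metabolism and 4 amino acid transporters.

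RNA was sequenced from MEFs of wild-type (WT) mice and of mice lacking *Aff3ir-ORF2*, one of the proteins encoded by *Aff3ir*, a gene nested in *Aff3*. Each genotype had 3 libraries, and the genotypes were compared to ask which transcripts change without the protein. The knockout was germline, made with Cas9 mRNA and guide RNAs in zygotes, so every cell of the embryo carried it. Nothing in the labels says that the libraries of a genotype came from separate embryos or cultures, so the p-values measure only the spread between these libraries, which may be technical.

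The UPR restores protein folding when unfolded proteins accumulate in the ER. The ER membrane proteins IRE1 (*Ern1*), PERK (*Eif2ak3*) and ATF6 sense the load. ATF6 and spliced XBP1 induce chaperones and degradation genes. PERK phosphorylates the translation factor eIF2α, which slows protein synthesis while the *Atf4* mRNA is translated more, and ATF4 then induces genes for making, importing and charging amino acids. Other kinases, such as GCN2 on amino acid shortage, reach ATF4 without ER stress, in what is called the integrated stress response (ISR). Fibroblasts secrete large amounts of collagen, whose folding and high demand for glycine and proline draw on both programs.

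Total counts ranged from 17435133 to 18252330 per library, and members had between 142 and 23081 counts. Values are given as CPM, counts scaled to a common library size by edgeR's TMM method, and differences as log2 fold changes of *Aff3ir-ORF2-/-* over WT with their standard error (SE). P-values are from the quasi-likelihood test of edgeR, adjusted by the Benjamini-Hochberg method over all 13075 genes. *Aff3ir* was not analysed here. The parent gene *Aff3* was lower, with 406 to 418 counts in WT and 186 to 229 in *Aff3ir-ORF2-/-* libraries (log2 -1.06, adjusted p = 1.23e-05). The part of *Aff3* in the differences below was not tested. Of 12 fibroblast markers none was at 0. Their summed level was 30489 to 30588 CPM in WT, and 27267, 32302 and 25447 CPM in *Aff3ir-ORF2-/-* replicates 1, 2 and 3. At an adjusted p under 0.05, 3 of them rose and 4 fell, beside 29.3% and 27.5% of all tested genes. Their log2 fold changes ranged from -1.05 for *Postn* to 2.17 for *Lum*. The summed level of 15 macrophage markers was 22.7 to 25.9 CPM in WT, with *C1qa*, *C1qb* and *Aif1* at 0, and 1309.7, 1802.1 and 2235.6 CPM in *Aff3ir-ORF2-/-* replicates 1, 2 and 3. All 14 markers that passed the filter were higher past an adjusted p under 0.05 and 1.5-fold, beside 14.2% of all tested genes. Several passed the filter only through the *Aff3ir-ORF2-/-* libraries, such as *C1qa*, *C1qb* (0 counts in WT) and *Spi1* (1 to 3). Their direction was thereby fixed in advance. The part of these markers in the differences below was not tested, and in such bulk samples fewer cells expressing a gene cannot be told apart from less RNA per cell.

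The ER genes and the amino acid genes differed mostly in opposite directions. At an adjusted p under 0.05 and at least 1.5-fold, 3 of the 41 genes were higher in *Aff3ir-ORF2-/-* MEFs, *Nupr1*, *Ddit3* and *Eif2ak3*, beside 14.2% of all tested genes. With the same thresholds 4 genes were lower, *Cth*, *Slc7a1*, *Slc7a5* and *Mthfd2*, beside 7.27% of all tested genes. At an adjusted p under 0.05 and any fold, 16 of the 41 rose, beside 29.3% of all tested genes, and 12 fell, beside 27.5%. Of the 21 chaperone, degradation and sensor genes, 14 rose and 1 fell. Of the 20 regulators, enzymes and transporters of the ATF4 arm, 2 rose and 11 fell. The median log2 fold change was 0.24 in the first set and -0.35 in the second, beside 0.0056 over all tested genes. In 17 genes every *Aff3ir-ORF2-/-* library lay above every WT library in CPM, beside 33.3% of all tested genes, and in 12 every one lay below, beside 32.7%.

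**Figure D1:**
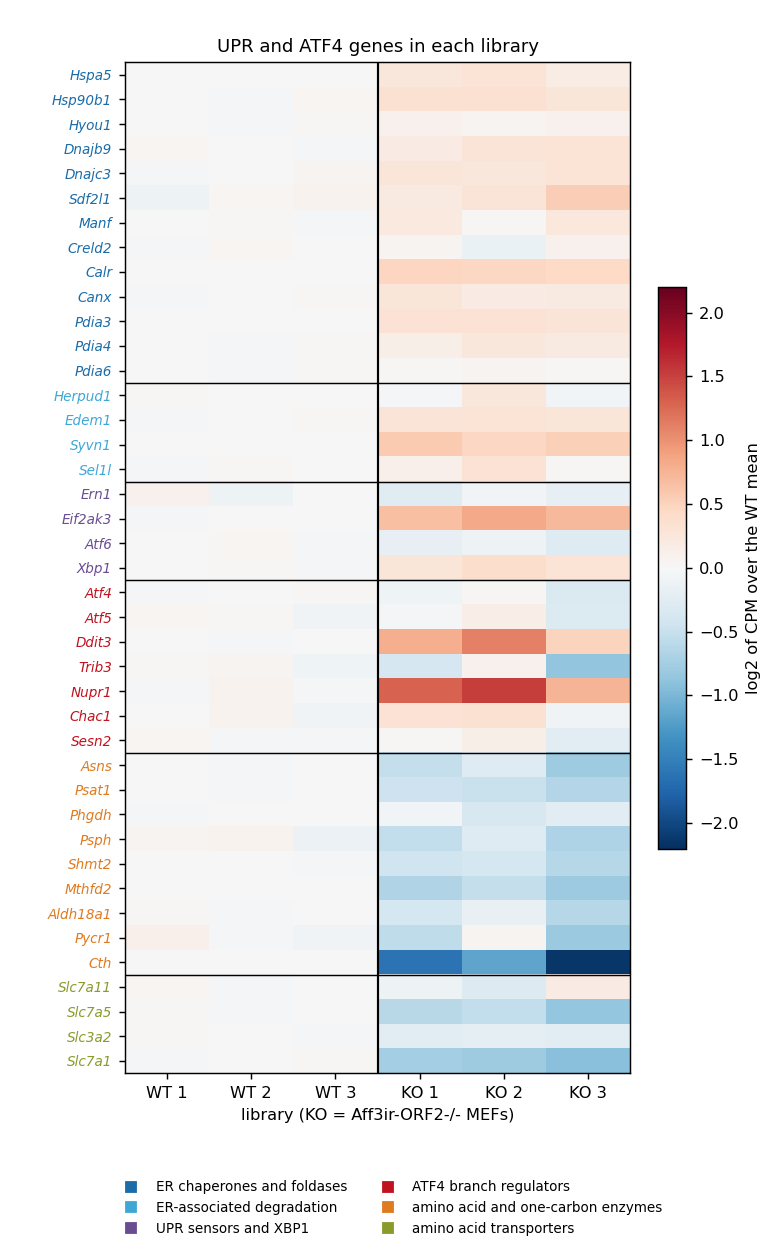
Heat map of the 41 genes (rows, coloured and divided by role) in the 6 libraries (columns). Colour gives the log2 ratio of each library's CPM to the WT mean of that gene. The 3 WT columns are nearly blank, the ER genes at the top are mostly pale red in the *Aff3ir-ORF2-/-* columns, and the enzymes and transporters at the bottom are mostly blue, deepest for *Cth*.

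The changes among the ER chaperones and foldases were small and nearly all in one direction. Of 13 genes, 10 rose, beside 29.3% of all tested genes, and none fell, beside 27.5%. The log2 fold changes of all 13 were above 0, at a median of 0.24 and up to 0.45. None reached 1.5-fold, beside 14.2% of all tested genes that were higher past both thresholds. *Calr* encodes calreticulin, a lectin chaperone that retains glycoproteins until they fold. Its level was 910, 896 and 912 CPM in WT replicates 1 to 3 and 1254, 1239 and 1233 CPM in the *Aff3ir-ORF2-/-* replicates, a 1.37-fold rise (log2 0.45, SE 0.042, adjusted p = 1.97e-05). The gap between the genotypes was many times the spread within either.

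*Hspa5* encodes BiP, the ER Hsp70 that also holds the UPR sensors inactive, and is the classical readout of the response. It was at 842, 850 and 859 CPM in WT and at 1015, 1047 and 954 CPM in *Aff3ir-ORF2-/-* libraries, a 1.18-fold rise (log2 0.24, SE 0.0485, adjusted p = 0.00213). All 3 *Aff3ir-ORF2-/-* libraries were above WT, replicate 3 by the least. *Hsp90b1*, the ER Hsp90 known as GRP94, rose from 930 to 977 CPM in WT to 1141 to 1207 CPM (log2 0.32, SE 0.0468, adjusted p = 0.000337). The disulfide isomerase gene *Pdia3*, whose product works with calreticulin, rose by a log2 of 0.30, and *Canx*, the membrane-bound partner of calreticulin, rose by 0.22. *Dnajb9*, *Dnajc3* and *Sdf2l1*, which encode cochaperones of BiP, rose by 0.25, 0.27 and 0.35. *Pdia4* rose by 0.19, and *Manf*, which encodes a secreted ER stress protein, by 0.16. The call of *Sdf2l1*, at only 8.24 to 13.0 CPM, was lost without any 1 of the WT libraries (adjusted p from 0.0514 to 0.0967) and without *Aff3ir-ORF2-/-* replicate 3 (0.0916). That of *Manf* was lost without any 1 library (adjusted p from 0.0776 to 0.123) except *Aff3ir-ORF2-/-* replicate 2.

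The 3 others did not pass. *Hyou1*, a large Hsp70-like exchange factor of BiP, was at 219 to 229 CPM in WT and 233 to 240 CPM in *Aff3ir-ORF2-/-* libraries, without overlap, but its log2 difference of 0.08 had an adjusted p of 0.123. It passed without *Aff3ir-ORF2-/-* replicate 2 (0.09, adjusted p = 0.0312) and with upper quartile or total count scaling (adjusted p = 0.0226 and 0.0328). *Pdia6* and *Creld2* overlapped between the genotypes, with log2 differences of 0.04 (95% interval -0.05 to 0.13) and 0.01 (95% interval -0.16 to 0.17). The 95% intervals of all 3 end at 0.17 or below.

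Many of these chaperone genes are known to carry an ER stress response element (ERSE), the site through which ATF6 and XBP1 act with the factor NF-Y. Promoter windows of 300 bases, 250 before and 50 after the annotated start, were taken from RefSeq on GRCm38.p6 and were found for 36 of the 41 genes, including 11 of the 13 chaperones. The ERSE was searched on both strands as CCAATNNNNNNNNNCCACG, where N is any base. It was present in the windows of 7 of the 11 chaperones (63.6%) and of 8 of the 36 members (22.2%), beside 17 of the 10425 tested genes with a window (0.163%). The stretch before the start of *Hspa5* is shown whole, since its gene is the usual readout of the pathway, at chr2:34771840-34772089 on the plus strand, with the fixed bases of the ERSE in capitals, 65 to 47 bases before the start:

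Hspa5: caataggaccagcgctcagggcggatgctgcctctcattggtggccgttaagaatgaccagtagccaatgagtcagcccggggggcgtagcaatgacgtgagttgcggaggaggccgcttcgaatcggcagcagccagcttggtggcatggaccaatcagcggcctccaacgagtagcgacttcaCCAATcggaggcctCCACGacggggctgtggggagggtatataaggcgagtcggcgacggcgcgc

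The same element in the other members that held it is shown with 10 bases on each side, read in the direction of the element so that the sites can be compared. Capitals mark the fixed bases, and the strand is that of the printed bases. *Hsp90b1* held a pair of such elements, at chr10:86705628-86705666 on the minus strand and chr10:86705523-86705561 on the plus strand. The others lay at chr8:84847065-84847103 (plus) for *Calr*, chr11:50325790-50325828 (minus) for *Canx*, chr14:118937817-118937855 (plus) for *Dnajc3*, chr12:17266481-17266519 (plus) for *Pdia6*, chr15:88819510-88819548 (minus) for *Creld2* and chr19:6046522-6046560 (plus) for *Syvn1*:

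Hsp90b1, far: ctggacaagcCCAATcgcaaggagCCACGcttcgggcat
Hsp90b1, near: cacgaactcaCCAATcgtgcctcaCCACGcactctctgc
Calr: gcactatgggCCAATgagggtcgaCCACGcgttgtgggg
Canx: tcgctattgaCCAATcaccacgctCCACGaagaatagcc
Dnajc3: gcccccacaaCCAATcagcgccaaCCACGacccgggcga
Pdia6: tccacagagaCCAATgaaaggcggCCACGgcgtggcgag
Creld2: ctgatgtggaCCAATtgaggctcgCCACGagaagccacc
Syvn1: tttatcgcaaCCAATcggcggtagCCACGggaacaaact

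These elements lay between 26 and 212 bases before the start. Of the 8 members that held one, 6 rose, beside 29.3% of all tested genes, and *Pdia6* and *Creld2* did not pass the test. The chaperones with a window but without the element, *Dnajb9*, *Sdf2l1*, *Pdia3* and *Pdia4*, rose too, beside the same 29.3%. The element was also found in *Ero1lb*, an ER oxidase gene outside the 41 that rose by a log2 of 0.49 (SE 0.171, adjusted p = 0.033) at 3.19 to 6.39 CPM. A further 8 tested genes with the element belong to none of the lists used here. Of these none rose, beside 29.3% of all tested genes, and 3 fell, beside 27.5%. Presence of the letters is a description and does not show that a factor bound there. The related core TGACGTGG of the UPR element was in no member's window and in 1.06% of tested genes.

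ER-associated degradation extracts misfolded proteins and marks them for the proteasome. Of its 4 genes 2 rose, beside 29.3% of all tested genes, and none fell, beside 27.5%. The median log2 fold change was 0.22. *Syvn1*, the ubiquitin ligase HRD1 at the centre of the complex, was at 35.9 to 36.3 CPM in WT and at 54.2, 49.7 and 52.2 CPM in *Aff3ir-ORF2-/-* replicates 1 to 3, a 1.44-fold rise (log2 0.52, SE 0.0539, adjusted p = 3.68e-05). This was the largest rise among the chaperone and degradation members. *Edem1*, which marks mannose-trimmed glycoproteins for removal, rose by 0.29 (SE 0.0395, adjusted p = 0.000225). *Sel1l*, the partner that stabilises HRD1, was at 221, 230 and 227 CPM in WT and 244, 281 and 229 CPM in *Aff3ir-ORF2-/-* libraries. Replicate 3 of the latter lay within the WT range, and the difference of 0.15 did not pass (adjusted p = 0.0864). It was 0.21 without that library (adjusted p = 0.0154) and 0.06 without replicate 2 (adjusted p = 0.158). *Herpud1*, an HRD1 adaptor, was at 52.0 to 53.4 CPM in WT and at 51.6, 62.3 and 50.4 CPM in *Aff3ir-ORF2-/-* libraries, with replicate 2 alone above WT (log2 0.06, adjusted p = 0.537).

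*Herpud1* was the only member whose window held the shorter form of the element, ERSE-II (ATTGGNCCACG, present in 0.0863% of tested genes), and it also held the CCAAT-enhancer binding protein and ATF response element (CARE, searched as TGATGNAA), the site that ATF4 binds. Both are shown in the direction of the element, with capitals at its fixed bases, from chr8:94386367-94386397 on the plus strand and chr8:94386307-94386334 on the minus strand:

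Herpud1, ERSE-II: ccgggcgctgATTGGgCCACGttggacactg
Herpud1, CARE: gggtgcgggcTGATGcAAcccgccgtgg

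The sensors did not move together. *Eif2ak3*, which encodes PERK, was at 22.6, 23.3 and 23.3 CPM in WT and at 36.3, 41 and 38 CPM in *Aff3ir-ORF2-/-* libraries, a 1.67-fold rise (log2 0.74, SE 0.0643, adjusted p = 1.47e-05). It was the only one of the 21 ER genes past 1.5-fold. *Ern1*, which encodes IRE1, was at 27.6, 23.9 and 25.8 CPM in WT and 21.3, 24.6 and 22.6 CPM in *Aff3ir-ORF2-/-* libraries. Replicate 2 of the latter overlapped WT, and the difference of -0.17 did not pass (adjusted p = 0.0877), while without that library it was -0.23 (adjusted p = 0.0133).

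*Atf6* fell slightly. Its level was 138, 140 and 133 CPM in WT and 122, 128 and 113 CPM in *Aff3ir-ORF2-/-* libraries, without overlap (log2 -0.18, SE 0.0532, adjusted p = 0.0143). The call was lost without WT replicate 1 or 2 (adjusted p = 0.0606 and 0.0650) and with upper quartile scaling. *Xbp1*, the target of the IRE1 splicing reaction, was at 65.7, 66.7 and 64.9 CPM in WT and at 79.3, 86.1 and 81.3 CPM in *Aff3ir-ORF2-/-* libraries, a 1.25-fold rise (log2 0.32, SE 0.0483, adjusted p = 0.000364). Counts per gene do not separate spliced from unspliced *Xbp1*, and the cleavage of ATF6 and the phosphorylation of PERK and eIF2α are not visible in RNA levels.

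**Figure D2:**
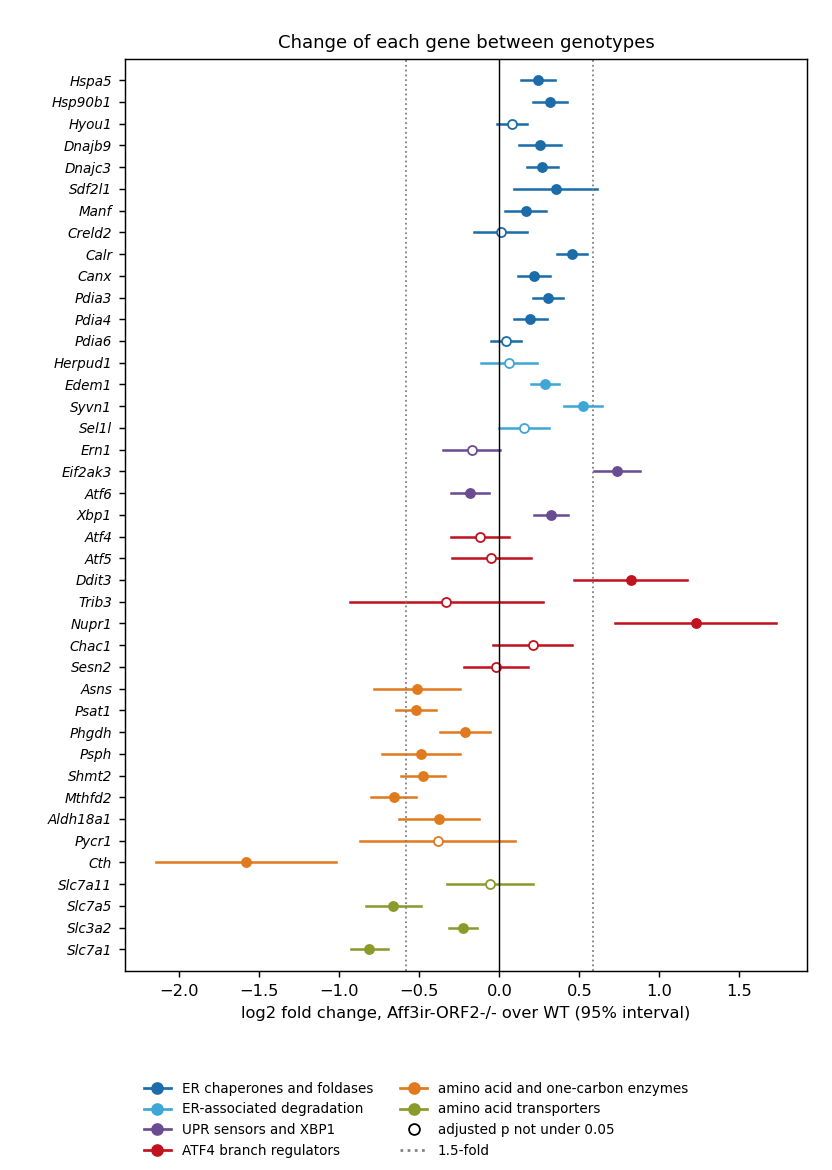
Log2 fold change of *Aff3ir-ORF2-/-* over WT (horizontal axis) for each of the 41 genes (vertical axis), coloured by role. Points are the estimates and lines their 95% intervals. Filled points had an adjusted p under 0.05 and dotted lines mark 1.5-fold. The chaperones and degradation genes lie at or above 0, *Atf6* and *Ern1* lie below 0, *Eif2ak3* lies past the 1.5-fold line, the enzymes and transporters lie below 0, and the widest intervals belong to *Trib3*, *Cth*, *Nupr1* and *Pycr1*.

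Most regulators of the ATF4 branch did not pass the test. Of 7 genes, 2 rose past 1.5-fold, beside 14.2% of all tested genes, none fell, beside 27.5%, and 5 did not pass. The median log2 fold change was -0.02. *Atf4* itself was at 292, 299 and 301 CPM in WT and at 277, 304 and 238 CPM in *Aff3ir-ORF2-/-* replicates 1, 2 and 3. Replicate 2 lay above all WT libraries and replicate 3 well below, and the difference of -0.12 (95% interval -0.30 to 0.06) did not pass (adjusted p = 0.219). Without replicate 2 it was -0.21 (adjusted p = 0.0123), and without replicate 3 it was -0.03 (adjusted p = 0.603). ATF4 is controlled mainly by translation, which these libraries do not measure.

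*Ddit3* encodes CHOP, the transcription factor linked to cell death under prolonged ER stress. Its level was 41.5, 41 and 42.0 CPM in WT and 72.5, 89.3 and 58.4 CPM in *Aff3ir-ORF2-/-* libraries, a 1.77-fold rise (log2 0.82, SE 0.147, adjusted p = 0.00324). *Ddit3* shares 68 exonic bases with *Mars* on the opposite strand, and whether reads were counted by strand is not given in the sources used here. *Nupr1*, a stress-induced chromatin protein, showed the largest rise of the 41 genes, from 25.7, 27.8 and 25.8 CPM to 64.9, 76.3 and 44.4 CPM (2.34-fold, log2 1.23, SE 0.204, adjusted p = 0.00327). All *Aff3ir-ORF2-/-* libraries were above WT for these genes, with replicate 2 highest and replicate 3 lowest in both.

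*Trib3*, a pseudokinase induced by ATF4 and CHOP that restrains ATF4, had the widest interval of the 41. It was at 90.7, 92.1 and 82.9 CPM in WT and at 68.8, 94.1 and 48.3 CPM in *Aff3ir-ORF2-/-* libraries, so that replicate 2 lay above WT and replicate 3 far below (log2 -0.33, 95% interval -0.93 to 0.27, adjusted p = 0.289). Without replicate 2 the difference was -0.60 (adjusted p = 0.0575) and without replicate 3 it was -0.12 (adjusted p = 0.467). *Atf5*, a related factor also controlled by translation, was at 155, 151 and 142 CPM in WT and 147, 165 and 121 CPM in *Aff3ir-ORF2-/-* libraries, again with replicate 2 above and replicate 3 below WT (log2 -0.05, adjusted p = 0.705). *Chac1*, which degrades glutathione, differed by 0.21 (adjusted p = 0.133) and *Sesn2*, a leucine sensor upstream of mTORC1, by -0.02 (adjusted p = 0.845). Both overlapped between the genotypes. Without *Aff3ir-ORF2-/-* replicate 3, *Chac1* rose by 0.33 (adjusted p = 0.00278), and without replicate 2 it differed by 0.13 (adjusted p = 0.364).

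The enzymes that make amino acids and one-carbon units were lower as a group. Of 9 genes, 8 fell, beside 27.5% of all tested genes, and none rose, beside 29.3%. All 9 had negative log2 fold changes, with a median of -0.49. Their summed level was 2386, 2369 and 2382 CPM in WT and 1822, 1816 and 1580 CPM in *Aff3ir-ORF2-/-* libraries. *Cth*, cystathionine gamma-lyase, which makes cysteine in the transsulfuration pathway, showed the largest change of the 41. It was at 76.4, 75.1 and 75.3 CPM in WT and at 24.5, 33.9 and 17.2 CPM in *Aff3ir-ORF2-/-* libraries, 3.00-fold lower (log2 -1.59, SE 0.226, adjusted p = 0.00196). The lowest WT library was more than the sum of any pair of *Aff3ir-ORF2-/-* libraries.

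*Mthfd2*, the mitochondrial folate enzyme that passes on the carbon released from serine, was the other enzyme past 1.5-fold. It was at 201, 198 and 200 CPM in WT and at 127, 138 and 114 CPM in *Aff3ir-ORF2-/-* libraries, 1.58-fold lower (log2 -0.66, SE 0.0634, adjusted p = 2.50e-05). *Shmt2*, which acts just before it by splitting serine into glycine and a one-carbon unit, fell by 0.48 (SE 0.0608, adjusted p = 0.000134).

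The enzymes of serine synthesis fell unequally. *Psat1*, the aminotransferase of the second step, was at 580, 567 and 582 CPM in WT and 423, 412 and 370 CPM in *Aff3ir-ORF2-/-* libraries (log2 -0.52, SE 0.0549, adjusted p = 4.17e-05). *Psph*, the phosphatase of the last step, fell by 0.49 (adjusted p = 0.00482). It shares 452 of its 4329 annotated exonic bases with *Cct6a* on the opposite strand, so its counts may include reads of that gene. *Phgdh*, the dehydrogenase that commits carbon to the pathway, was at 581, 593 and 597 CPM in WT and 567, 460 and 497 CPM in *Aff3ir-ORF2-/-* libraries, with replicate 1 close to WT (log2 -0.22, SE 0.0702, adjusted p = 0.0252). The call was lost without any 1 of the WT libraries (adjusted p from 0.0596 to 0.0827) and without *Aff3ir-ORF2-/-* replicate 3 (0.0603).

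*Asns*, asparagine synthetase and a standard ATF4 target, was at 340, 335 and 343 CPM in WT and 237, 278 and 197 CPM in *Aff3ir-ORF2-/-* libraries (log2 -0.52, SE 0.113, adjusted p = 0.00703). All 3 were below WT, replicate 2 by the least. In proline synthesis, *Aldh18a1*, which catalyses the first step from glutamate, fell by 0.38 (SE 0.106, adjusted p = 0.0190), a call lost without WT replicate 1 or *Aff3ir-ORF2-/-* replicate 1 (adjusted p = 0.0688 and 0.0533). *Pycr1*, which catalyses the last step, was at 13.5 to 15.3 CPM in WT and at 9.72, 14.9 and 8.12 CPM in *Aff3ir-ORF2-/-* libraries. Replicate 2 lay within the WT range, and the same log2 difference of -0.38 did not pass (SE 0.207, adjusted p = 0.151). Without replicate 3 it was -0.21 (adjusted p = 0.306). Without replicate 2 it was -0.68 (adjusted p = 5.84e-05), and 7 members rather than 4 were lower past 1.5-fold.

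Of the 4 amino acid transporters 3 fell, beside 27.5% of all tested genes, and none rose, beside 29.3%. *Slc7a1*, which imports arginine and lysine, was at 330, 334 and 339 CPM in WT and at 199, 195 and 177 CPM in *Aff3ir-ORF2-/-* libraries, 1.76-fold lower (log2 -0.81, SE 0.0512, adjusted p = 2.44e-06). This was the smallest p of the 41 genes. *Slc7a5*, the LAT1 subunit that imports leucine and other large neutral amino acids, was at 365, 353 and 360 CPM in WT and at 234, 248 and 198 CPM in *Aff3ir-ORF2-/-* libraries, 1.58-fold lower (log2 -0.66, SE 0.075, adjusted p = 9.90e-05).

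*Slc3a2*, the chain that carries LAT1 and other light chains to the cell surface, fell less, from 243 to 250 CPM in WT to 208 to 214 CPM (log2 -0.23, SE 0.0394, adjusted p = 0.000933). *Slc7a11*, the xCT subunit that imports cystine, was at 129, 122 and 127 CPM in WT and 117, 103 and 143 CPM in *Aff3ir-ORF2-/-* libraries. Replicate 3 was above WT and the others below (log2 -0.06, 95% interval -0.33 to 0.21, adjusted p = 0.686). Without replicate 3 the difference was -0.20 (adjusted p = 0.0247), and without replicate 2 it was 0.04 (adjusted p = 0.684). Replicate 3 was the highest of its genotype for *Slc7a11* and the lowest for the other transporters except *Slc3a2*.

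The CARE was found in the windows of 7 of the 36 members (19.4%), beside 2.70% of the tested genes with a window. Apart from *Herpud1* these were *Nupr1*, *Chac1*, *Trib3*, *Asns*, *Pycr1* and *Slc7a11*. The sites that lie before the start are shown with 10 bases on each side, read along the element with its fixed bases in capitals, because their genes include the largest rise among the members and several that did not separate the genotypes. They lie at chr7:126625563-126625590 (plus) for *Nupr1*, chr6:7693215-7693242 (minus) for *Asns*, chr2:119351039-119351066 (minus) for *Chac1*, chr11:120643834-120643861 (minus) for *Pycr1*, and chr3:50443662-50443689 (minus) and chr3:50443643-50443670 (plus) for *Slc7a11*, whose sites overlap in their flanks:

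Nupr1: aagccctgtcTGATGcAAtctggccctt
Asns: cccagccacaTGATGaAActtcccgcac
Chac1: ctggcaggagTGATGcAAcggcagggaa
Pycr1: gccctgtgtaTGATGcAAtgcacaaggc
Slc7a11, far: ctcatgtggcTGATGcAAacctggagaa
Slc7a11, near: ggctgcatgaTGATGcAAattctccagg

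Of the 7 members with a CARE in the window, 1 rose (*Nupr1*), beside 29.3% of all tested genes, and 1 fell (*Asns*), beside 27.5%. The other 5 did not pass. Of the 12 genes of the other pathway lists with a CARE, 1 rose and 6 fell. Of all 281 tested genes with a CARE, members included, 70 rose and 95 fell. Windows were not found for *Cth* and *Slc7a5*, and none of the letters searched was in the windows of *Slc7a1* and *Mthfd2*. Known sites can lie outside these windows, in introns for example.

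**Figure D3:**
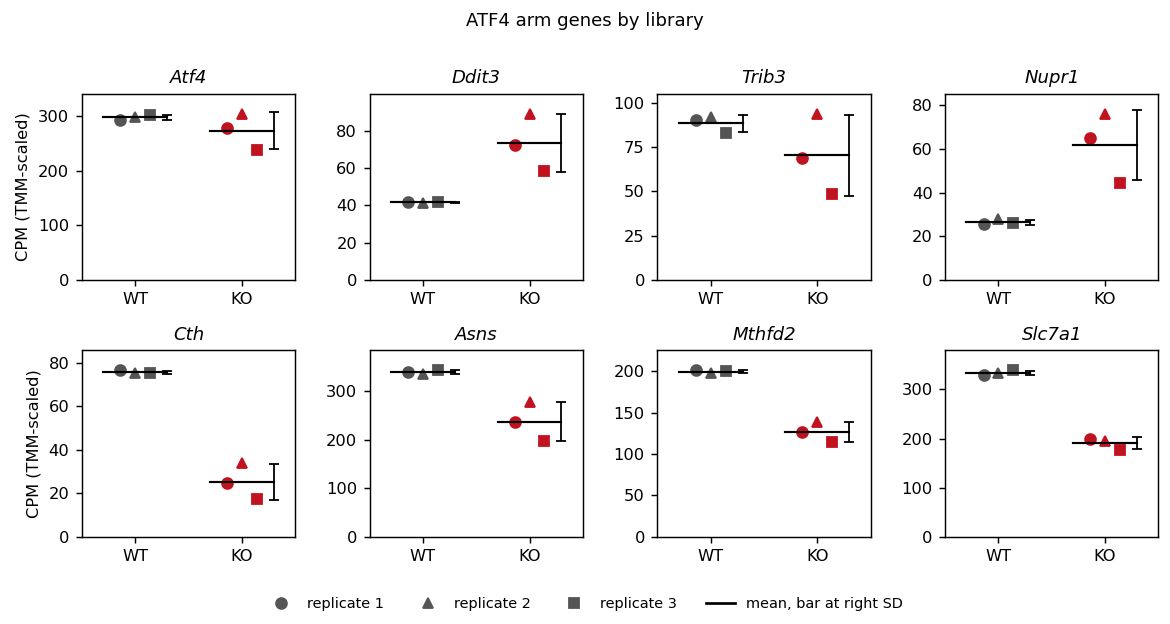
Levels (CPM, vertical axes from 0) of 8 genes of the ATF4 arm in 3 WT (grey) and 3 *Aff3ir-ORF2-/-* (red, KO) libraries. Marker shapes give the replicate number, horizontal lines the mean and error bars the SD. The WT points lie almost on top of each other, while KO replicate 2 is highest and replicate 3 lowest in all panels but that of *Slc7a1*, where replicate 1 is highest.

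The *Aff3ir-ORF2-/-* libraries differed from one another much more in the ATF4 arm than in the ER genes. The median coefficient of variation over the 20 ATF4 arm genes was 1.64% in WT and 15% in *Aff3ir-ORF2-/-* libraries. Over the 21 ER genes it was 1.73% and 4.40%, and over all tested genes with a mean of at least 10 CPM it was 3.20% and 6%. The libraries also kept an order. Replicate 2 was above replicate 1 and replicate 1 above replicate 3 in 15 of the 20 ATF4 arm genes (75%), in all 7 regulators and in 7 of the 9 enzymes, beside 7 of the 21 ER genes (33.3%) and 19.5% of all tested genes. This pattern was noticed in the values and is given as a description. The summed fibroblast markers had the same order over these libraries, but *Col3a1*, *Pdgfra*, *Dcn*, *Lum*, *Vim* and *S100a4* among them did not. The summed macrophage markers had another order, lowest in replicate 1 and highest in replicate 3. Their part in the spread was not tested.

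Genes of the same pathways outside the 41 had similar directions. Of 57 other UPR genes 56 passed the filter, with a median log2 fold change of 0.15. At an adjusted p under 0.05, 29 rose, beside 29.3% of all tested genes, and 1 fell (*Wfs1*, log2 -0.25), beside 27.5%. At least 1.5-fold higher were 4 genes, beside 14.2% of all tested genes. They included *Fkbp14*, a collagen-folding prolyl isomerase (log2 0.70, SE 0.0824, adjusted p = 9.55e-05), and *Kdelr3*, a retrieval receptor for ER proteins (0.63). The others were *Selenos*, a degradation complex protein (0.62), and *Edem3*, a relative of *Edem1* (0.62). None of the 56 was 1.5-fold lower, beside 7.27% of all tested genes.

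Of 46 other ATF4 and ISR genes 44 passed the filter, with a median log2 fold change of -0.31. At an adjusted p under 0.05, 5 rose, beside 29.3% of all tested genes, and 26 fell, beside 27.5%. With the 1.5-fold threshold 2 were higher, beside 14.2% of all tested genes, and 6 lower, beside 7.27%. *Ddit4*, which encodes the mTORC1 inhibitor REDD1, was at 17.1 to 18.7 CPM in WT and 42.7 to 49.3 CPM in *Aff3ir-ORF2-/-* libraries (2.59-fold, log2 1.37, SE 0.0731, adjusted p = 1.29e-06). *Gdf15*, a secreted stress cytokine, was low in both, at 1.19 to 1.37 CPM and 2.74 to 3.71 CPM (log2 1.29, SE 0.208, adjusted p = 0.000584). These rose with *Ddit3* and *Nupr1*, against the direction of most of the arm.

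Of the 5 largest falls in this list, 3 were of amino acid transporters. The other transporters of the list, *Slc38a2*, *Slc1a4* and *Slc6a9*, did not pass (log2 -0.04, -0.06 and -0.43, adjusted p = 0.468, 0.728 and 0.0679). *Slc1a5*, the glutamine transporter ASCT2, went from 140 to 155 CPM in WT to 56.9 to 67.5 CPM, 2.33-fold lower (log2 -1.22, SE 0.0699, adjusted p = 1.97e-06). *Slc7a3*, a relative of *Slc7a1*, fell by 1.01 on the log2 scale (SE 0.235, adjusted p = 0.0133) and *Slc43a1*, another importer of large neutral amino acids, fell by 0.72 at 2.02 to 3.58 CPM. *Shmt1*, the cytosolic counterpart of *Shmt2*, fell by 0.90 (SE 0.119, adjusted p = 0.000256).

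*Ppp1r15a*, which encodes GADD34, the phosphatase subunit that reverses eIF2α phosphorylation, was at 137, 132 and 129 CPM in WT and 70.5, 77.4 and 54.8 CPM in *Aff3ir-ORF2-/-* libraries, 1.96-fold lower (log2 -0.97, SE 0.116, adjusted p = 0.000396). It is commonly induced together with *Ddit3*, and here the genes moved in opposite directions. The list also held 13 cytosolic aminoacyl-tRNA synthetases, which load amino acids onto tRNA and were singled out after their values were seen. All 13 fell, beside 27.5% of all tested genes, by log2 values from -0.63 (*Lars*) to -0.22 (*Sars*), with a median of -0.33. In all 13 every *Aff3ir-ORF2-/-* library lay below every WT library, beside 32.7% of all tested genes.

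**Figure D4:**
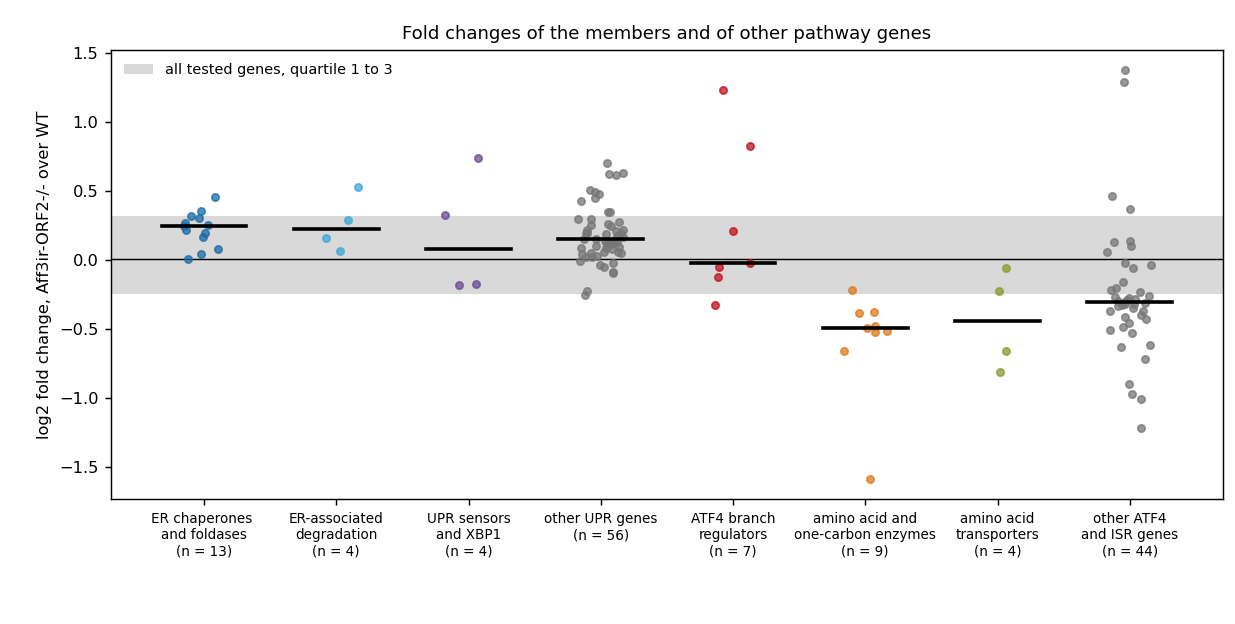
Log2 fold change of *Aff3ir-ORF2-/-* over WT (vertical axis) for the role groups of the 41 genes (coloured) and the other genes of both pathways (grey). Points are genes, thick bars medians, the thin line the median of all tested genes and the band the range of their middle quartiles, from -0.245 to 0.315. The UPR groups on the left have medians of 0.07 to 0.24 and the ATF4 regulators one of -0.02, inside the band, while the enzymes, the transporters and the other ATF4 and ISR genes on the right have medians of -0.49, -0.44 and -0.31, below it.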

How the data were processed

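RNA-seq libraries of WT and *Aff3ir-ORF2-/-* MEFs, 3 of each, were analysed. Reads were filtered with SOAPnuke, and the authors deposited estimated counts (expected counts) per gene and library, without normalization. The submitters' processing notes name the build mm8, and the aligner and counter are not given in the sources used here. The deposited counts were rounded to whole numbers (10.6% to 11.3% of values were not whole). Genes were filtered with filterByExpr (minimum count 10, minimum total 15), scaled by TMM and tested with edgeR 4.0.16 (glmQLFit with robust estimation, glmQLFTest, no covariates, R 4.3.3), adjusting by Benjamini-Hochberg over all 13075 genes. The SE is the log2 fold change over the square root of F. Alternatives used limma 3.58.1 and DESeq2 1.42.0, and the functions were tested on simulated data. Figures used Python 3.11.15 and matplotlib 3.10.9. Reference sequences are RefSeq promoter windows on GRCm38.p6, matched by gene ID, and exon overlaps are from GENCODE M21.

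The members, role groups and other lists were chosen with earlier results of these data known. Any member could be named, with values in every library for those past the thresholds, the sensors and main regulators, and the member of each group with the most counts. Other genes, up to 5 called per direction and list, were named by size, and those given beyond this rule were chosen after their values were seen. The biological coefficient of variation was 0.0185 in WT and 0.0998 in *Aff3ir-ORF2-/-* libraries, so counting error is a large part of the spread between WT libraries for all but the abundant genes.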

Additional observations from a re-analysis of the deposited data

How the results depend on the processing

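Other scalings, filters, DESeq2, limma voom and, added after seeing the data, the fit without robust estimation kept the number of members higher at 3 and lower at 4 within 1.5 times. Thresholds mattered more. With a 2-fold change 1 member was higher and 1 lower, 0 other UPR genes were higher and 2 other ATF4 and ISR genes were lower. In a test against a 1.5-fold change 2 members and 3 other ATF4 and ISR genes were lower and 0 other UPR genes were higher. Leaving out each library in turn gave 3 to 7 lower members and 5 to 10 lower ATF4 and ISR genes, the highest counts without *Aff3ir-ORF2-/-* replicate 2, and 23 to 32 members past the adjusted p (28 with all libraries).

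Of 615 values of single members under alternatives, 572 kept direction and call, 20 lost the call, 11 gained it and 12 changed sign, all in genes that did not pass. Lost calls were of *Sdf2l1* and *Manf* (also by DESeq2, adjusted p = 0.0571 and 0.0504), *Atf6* (upper quartile scaling, 0.0507), *Phgdh* and *Aldh18a1*. Gained calls were of *Hyou1* (upper quartile 0.0226, total counts 0.0328), *Pycr1* (limma voom, 0.0449), *Chac1* (below) and, over libraries left out, *Hyou1*, *Sel1l*, *Ern1*, *Atf4*, *Chac1*, *Pycr1* and *Slc7a11*. *Creld2* was -0.0066 without a filter and -0.041 to 0.075 over libraries left out, and *Sesn2* was 0.017 with upper quartile scaling, 0.0070 with total counts and -0.11 to 0.077 over libraries left out. The same ranges were -0.047 to 0.115 for *Herpud1*, -0.161 to 0.059 for *Atf5* and -0.198 to 0.044 for *Slc7a11*. The median of the ATF4 regulators ranged from -0.107 to 0.077. Upper quartile and total count scaling raised the median of all genes to 0.043 and 0.034 and that of the chaperones to 0.279 and 0.270. The causes were not tested.

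Deviations of same-numbered libraries correlated by 0.0386, 0.0424 and 0.0145, so the numbers were not taken as pairs, although each library correlated best with its own number. With the replicate block, 3 members were higher and 4 lower, and *Chac1* passed at 0.20 (adjusted p = 0.0431).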
